A study of Rattus norvegicus with 10 samples.

Results

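Chemokines are small secreted or membrane-bound proteins that direct the movement of leukocytes, and their receptors are G-protein-coupled receptors on the responding cells. The ligands are named for the spacing of their leading cysteines (CC, CXC, C and CX3C), and a few atypical receptors (Ackr genes) take up chemokines without classical signalling. In brain tissue, Cx3cl1 is made by neurons and read by microglia, Cxcl12 is made constitutively, and many other ligands are inducible in glia and in cells of the vessel wall. The members described here were chosen by gene name: every row whose symbol began with Ccl, Ccr, Cxcl, Cxcr, Xcl, Xcr or Ackr followed by a digit, and Cx3cl1. This gave 54 of the 32623 genes in the table, 34 ligands and 20 receptors. A mean of at least 10 normalized counts over the 10 samples was required for a test, which 32 members met and 22 did not. Cxcr2 lay just inside this limit with a mean of 12.0, and Ccr10 just outside with 9.24.

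RNA was sequenced from the supraoptic nucleus, a hypothalamic nucleus that holds vasopressin and oxytocin neurons, of male Sprague Dawley rats weighing 250 to 300 g, whose age was not stated. Each animal had received adeno-associated virus carrying a short hairpin RNA against the opsin gene Opn3 in one nucleus (shOpn3, n = 5) and virus with a non-targeting hairpin in the opposite nucleus (shControl, n = 5). Virus injection was therefore common to both groups, and no group without virus was analysed here. The promoter that drove the hairpin and the cell types it reached were not given in the sources used here. Nuclei were collected 2 weeks after injection as 1 mm punches and extracted singly. Both nuclei of a rat could thus enter the study, 1 in each group, but no label ties a replicate number to an animal, and the p-values measure the spread between these 10 samples.

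Libraries held 33158341 to 39958578 reads each. Opn3 had 719, 694, 841, 1007 and 261 normalized counts in shControl replicates 1 to 5 and 290, 193, 159, 154 and 145 in shOpn3 replicates 1 to 5. Its log2 value fell by 1.82 (limma adjusted p = 0.00226, SE 0.320), with an overlap between shControl replicate 5 and shOpn3 replicate 1. Defining markers of the tissue were present, with summed counts of 8 magnocellular genes of 64719 to 181391 in shControl and 12839 to 39089 in shOpn3, of which 7 were lower and 1 was higher. All 7 oligodendrocyte markers were also lower. Of 9 microglial and macrophage markers tested, 8 were higher, and their sum ran from 14660.4 to 17685 in shControl and from 23466 to 44787 in shOpn3. Of 9 T cell markers 5 were higher, with sums of 782 to 1011 and of 1729.8 to 4714, most of which came from Cd4, a gene that rat macrophages also express. Neither sum overlapped between the groups. Of 7 astrocyte markers 3 were higher, Gfap by 1.10, Aqp4 by 0.45 and Gja1 by 0.42 on the log2 scale, with sums of 262413 to 346641 and of 309051 to 449407. The 4 not called were Slc1a3 (-0.14, lower in 5 of 5 pairs), S100b (-0.04), Aldh1l1 (0.07) and Slc1a2 (0.21). Of 8 neuronal markers 1 was higher, Rbfox3. Lists of other cell types also had called genes, 2 of 6 for perivascular macrophages and monocytes, 2 of 5 for natural killer and cytotoxic cells and 2 of 7 for dendritic cells, all higher. The dendritic cell list holds the members Xcr1 and Ccr7, and its 2 called genes were Itgax and Xcr1 itself. For endothelium 0 of 7 were called, and for pericytes and meningeal fibroblasts 0 of 6. Over all single genes tested, limma called 10.4% higher and 8.48% lower, and 15.3% did not overlap between the groups. In these bulk samples more cells of a type and more RNA per cell cannot be told apart. The part of these shifts in the results below was not tested.

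Of the 32 tested members, 16 were higher in shOpn3, namely 12 of 20 ligands and 4 of 12 receptors, and 0 were called lower (limma adjusted p under 0.05). Among all 15597 genes tested, 10.4% were called higher and 8.48% lower. At an unadjusted p under 0.05 there was 1 member lower, Ackr4, and edgeR and DESeq2 each called 0 members lower, against 8.25% and 10.9% of all genes. The median log2 fold change was 1.04 over the tested members, 2.24 over the ligands and 0.36 over the receptors, against -0.02 over all genes tested. A shControl mean under 10 was found for 6 tested members, which entered the test through their shOpn3 values. Of these, 4 were called (Ccl4, Ccl12, Xcr1 and Cxcr3), so the counts describe the members that passed the filter and do not stand for the gene family. Groups did not overlap for 14 of the called members, against 8.03% of all genes tested in that direction. Values were higher in shOpn3 in 5 of 5 same-numbered pairs for 15 of them, against 18.7% of all genes tested. Both comparisons set genes already picked by their p-value against all genes. Called genes tend to separate through that choice, so these shares describe the called members and are no further support.

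**Figure D1:**
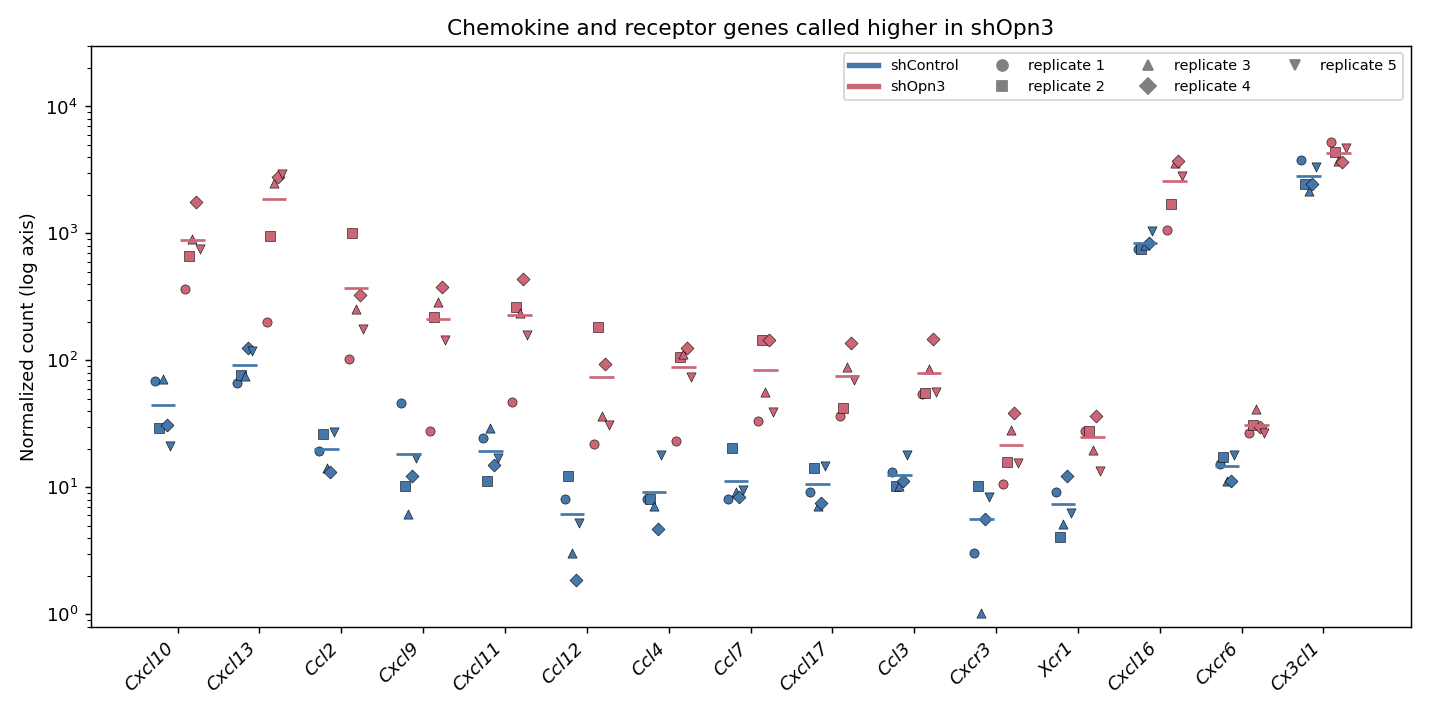
Normalized counts (log axis) of 15 members called higher in shOpn3, by gene; blue marks are shControl and red marks shOpn3 libraries, the marker shape gives the replicate number and lines give group means (n = 5 each). Cxcl10 ran from 21.1 to 71.4 in shControl and from 363 to 1757 in shOpn3.

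The Cxcr3 ligands Cxcl9, Cxcl10 and Cxcl11, which interferons induce and which attract activated T cells and natural killer cells, lie side by side on rat chromosome 14 in the RefSeq annotation of GRCr8, and all of them rose. Cxcl10 (ENSRNOG00000022256) had 69.3, 29.5, 71.4, 30.9 and 21.1 normalized counts in shControl replicates 1 to 5 and 363, 668, 906, 1757 and 750.0 in shOpn3 replicates 1 to 5. Its lowest shOpn3 library was thus above every shControl library. The means were 44.5 ± 24.0 and 889 ± 524 (SD, n = 5 each), with a log2 fold change of 4.27 (limma adjusted p = 0.000151, SE 0.418) on the log2(normalized count + 1) scale used for all fold changes here. Between same-numbered nuclei the ratio ran from 5.23 in pair 1 to 56.9 in pair 4.

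Cxcl11 (ENSRNOG00000022298) stood at 24.5, 11.2, 29.6, 14.98 and 16.9 in shControl and at 47.0, 261, 238, 437 and 159 in shOpn3. The groups did not overlap, and shOpn3 replicate 1 lay closest to the controls. The log2 fold change was 3.25 (limma adjusted p = 0.000980, SE 0.491). Cxcl9 (ENSRNOG00000022242) had 45.9, 10.2, 6.12, 12.2 and 16.9 in shControl and 27.8, 219.8, 286, 379 and 144 in shOpn3. Here the groups overlapped, because shControl replicate 1 was above shOpn3 replicate 1, and 4 of 5 pairs were higher. The log2 fold change of Cxcl9 was 3.36 (limma adjusted p = 0.00419, SE 0.659). Their receptor Cxcr3 (ENSRNOG00000003305) had 3.06, 10.2, 1.02, 5.62 and 8.44 in shControl and 10.6, 15.9, 28.0, 38.6 and 15.4 in shOpn3. These few reads did not overlap between the groups although shControl replicate 2 and shOpn3 replicate 1 nearly met. Cxcr3 rose by 1.87 on the log2 scale (limma adjusted p = 0.0189, SE 0.489), and without shOpn3 replicate 3 it was no longer called (log2 fold change 1.74, limma adjusted p = 0.0545).

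Cxcl13 (ENSRNOG00000024899), the ligand of Cxcr5 and an attractant of B cells, had 66.3, 77.3, 75.5, 125 and 118 normalized counts in shControl and 201, 956, 2482, 2793 and 2958 in shOpn3. Replicates 3 to 5 of shOpn3 were high, replicate 2 was lower and replicate 1 lay nearest to the controls, without overlap. Its log2 fold change was 3.87 (limma adjusted p = 0.00135, SE 0.620). Reads of its receptor Cxcr5 were few and similar, with 3, 8, 5, 9 and 5 in shControl and 6, 8, 8, 9 and 5 in shOpn3. Of 4 tested B cell and plasma cell markers, 0 were called by limma, edgeR or DESeq2, and 0 had an unadjusted limma p under 0.05, against 1 by edgeR and 1 by DESeq2. With the replicate block 1 of them, Jchain, was called higher (log2 fold change 0.64, limma adjusted p = 0.0263), in 5 of 5 pairs. The sum over the 6 markers of that list was 62.2 to 111 in shControl and 70.9 to 211 in shOpn3.

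The ligands of Ccr2, the main receptor for recruitment of monocytes, also rose. Ccl2 (ENSRNOG00000007159) had 19.4, 26.5, 14.3, 13.1 and 27.4 normalized counts in shControl and 103, 1011, 254, 328 and 178 in shOpn3. Replicate 2 of shOpn3 stood far above the next library, and all shOpn3 libraries were above all controls. The log2 fold change was 3.76 (limma adjusted p = 0.000483, SE 0.488), and 3.29 without shOpn3 replicate 2. In the fit without that library 17 members were called higher, against 9.54% of all genes. Ccl7 (ENSRNOG00000000239), its neighbour on chromosome 10, had 8.16, 20.4, 9.18, 8.43 and 9.49 in shControl and 33.6, 146, 56.1, 146 and 39.0 in shOpn3, a log2 fold change of 2.62 (limma adjusted p = 0.00168, SE 0.436). Ccl12 (ENSRNOG00000029768), from the same gene cluster, had 8.16, 12.2, 3.06, 1.87 and 5.27 in shControl and 22.1, 184, 36.4, 93.7 and 30.8 in shOpn3, a log2 fold change of 3.15 (limma adjusted p = 0.00289, SE 0.578). In both genes replicates 2 and 4 of shOpn3 were the high libraries. Ccl11, the eosinophil attractant whose gene lies between those of Ccl7 and Ccl12, had 0, 5, 0, 1 and 5 reads in shControl and 3, 3, 2, 4 and 2 in shOpn3. No gene named Ccr2 was among the deposited values, so this receptor could not be read here.

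Ccl3 and Ccl4, which are typical products of activated macrophages and microglia, rose together. Ccl3 (ENSRNOG00000011205) had 13.3, 10.2, 10.2, 11.2 and 17.9 normalized counts in shControl and 54.7, 55.2, 85.0, 147 and 56.5 in shOpn3 (log2 fold change 2.49, limma adjusted p = 0.000321, SE 0.291). Ccl4 (ENSRNOG00000011406) had 8.16, 8.14, 7.14, 4.68 and 17.9 in shControl and 23.0, 107, 113, 125 and 74.0 in shOpn3 (log2 fold change 3.04, limma adjusted p = 0.000899, SE 0.451). Neither gene overlapped between the groups.

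Ccl5, a CC ligand made by T cells, had 71.4, 92.6, 67.4, 107 and 159 in shControl and 94.0, 136, 136, 162 and 136 in shOpn3. These ranges overlapped, and Ccl5 was not called (log2 fold change 0.46, 95% confidence interval -0.04 to 0.97, limma adjusted p = 0.191), although without shControl replicate 5 it was (0.65, limma adjusted p = 0.0385). Ccr1, which also binds Ccl3 and Ccl5, had a log2 fold change of 0.13 (95% confidence interval -0.42 to 0.67). Ccl6, their neighbour on chromosome 10, stood at 77.6 to 152 in shControl and 91.3 to 229 in shOpn3 (log2 fold change 0.29, limma adjusted p = 0.495). Ccl9, between Ccl5 and Ccl6, was too rare for the test, with 3, 4, 2, 1 and 2 reads in shControl and 36, 13, 8, 13 and 4 in shOpn3.

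**Figure D2:**
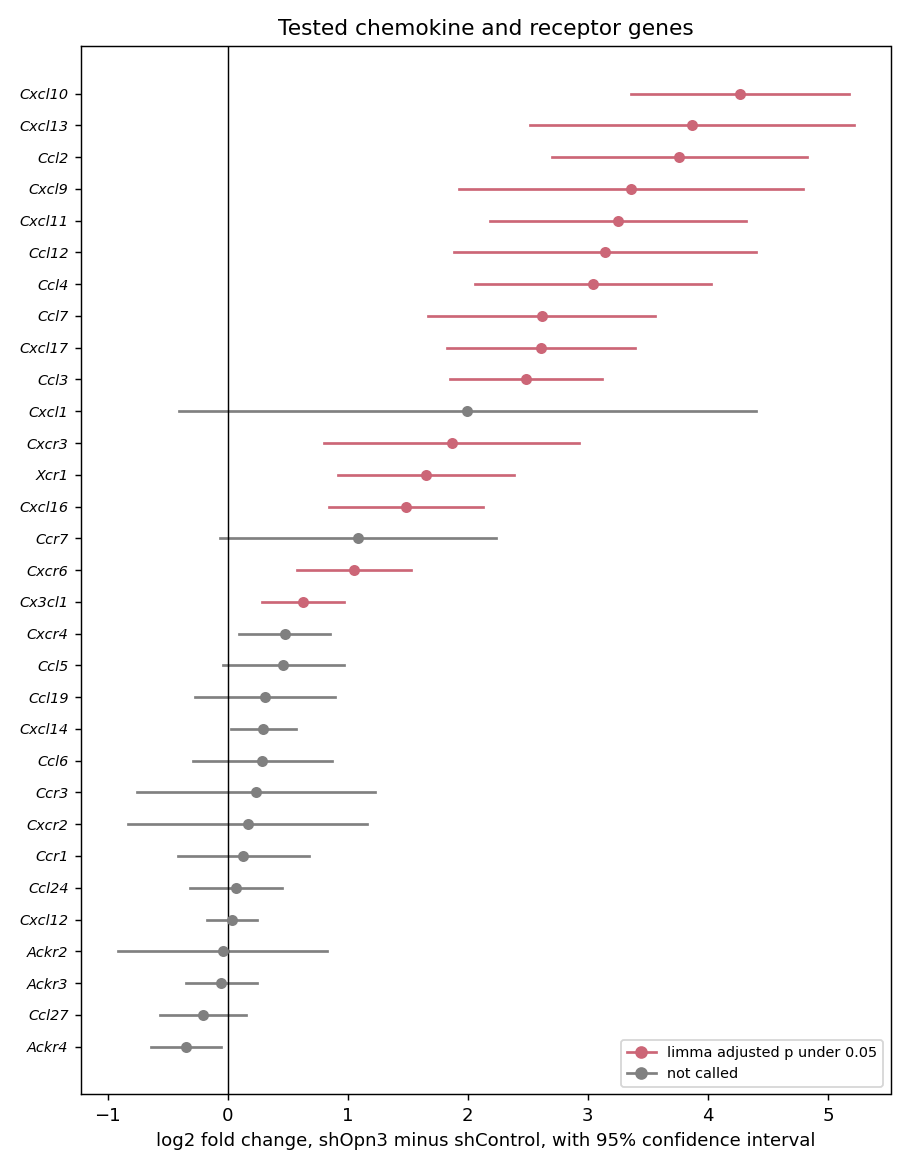
Log2 fold changes (shOpn3 minus shControl) of 31 tested members with 95% confidence intervals from limma; red marks members with an adjusted p under 0.05. Point estimates of called members ran from 0.63 to 4.27 and those of the other members from -0.35 to 2.0, the last being Cxcl1 with an interval from -0.41 to 4.40.

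Both ligands that are tethered to the cell membrane rose. Cxcl16 (ENSRNOG00000026647), which binds Cxcr6 and also acts as a scavenger receptor, had 748, 749.9, 817, 843 and 1045 normalized counts in shControl and 1069.7, 1697, 3604, 3689.9 and 2860.1 in shOpn3. The groups came close without overlapping, at shControl replicate 5 and shOpn3 replicate 1. Its log2 fold change was 1.48 (limma adjusted p = 0.00449, SE 0.294). Its receptor Cxcr6 (ENSRNOG00000006319) had 15.3, 17.3, 11.2, 11.2 and 17.9 in shControl and 26.9, 30.8, 41.1, 29.9 and 26.7 in shOpn3, and rose by 1.05 (limma adjusted p = 0.00572, SE 0.218).

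Cx3cl1 (ENSRNOG00000016326), or fractalkine, had 3799.5, 2461, 2154, 2461 and 3324 in shControl and 5240.2, 4416, 3704, 3636 and 4679 in shOpn3. The ranges overlapped through shControl replicate 1, yet each pair was higher in shOpn3, by a ratio of 1.38 to 1.79. With a log2 fold change of 0.63 (limma adjusted p = 0.0151, SE 0.157) it was the smallest called change among the members. The neuronal marker Rbfox3 rose by 0.62 (limma adjusted p = 0.00902, SE 0.140) and was, like Cx3cl1, highest of the shOpn3 group in replicate 1 and lowest in replicate 4. Rbfox3 was the 1 of 8 neuronal markers that was called. The others ran from -0.38 (Tubb3, lower in 5 of 5 pairs) to 0.47 (Gad1). Tubb3 was also highest in replicate 1, the rest were highest in replicate 2, and all were lowest in replicate 4. The part of neuronal shifts in the Cx3cl1 value was not tested. Cx3cr1, the microglial receptor of Cx3cl1, was read from the list of partner genes and had 1199.9, 874, 753, 779 and 1020.2 in shControl and 1601, 1187, 2047, 2488 and 1920.1 in shOpn3. It rose by 0.98 (limma adjusted p = 0.00361, SE 0.187), with an overlap at shControl replicate 1 and shOpn3 replicate 2.

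Cxcl17 (ENSRNOG00000037814), best known from mucosal tissues, had 9.18, 14.2, 7.14, 7.49 and 14.8 normalized counts in shControl and 36.5, 42.5, 88.8, 137 and 69.9 in shOpn3. No shOpn3 library reached down to the controls, and the log2 fold change was 2.61 (limma adjusted p = 0.000625, SE 0.359). Xcr1 (ENSRNOG00000006620), the receptor of Xcl1 and a marker of cross-presenting dendritic cells, had 9.18, 4.07, 5.10, 12.2 and 6.33 in shControl and 27.8, 27.6, 19.6, 36.7 and 13.4 in shOpn3. It rose by 1.65 (limma adjusted p = 0.00525, SE 0.337), and the groups came close at shControl replicate 4 and shOpn3 replicate 5. Its ligand Xcl1 had 6, 2, 0, 5 and 7 reads in shControl and 8, 9, 14, 16 and 10 in shOpn3.

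No call was made for the constitutive ligand Cxcl12 or for the atypical receptors, of which 3 were tested. Cxcl12, which binds Cxcr4 and Ackr3, ran from 2050.2 to 2506 in shControl and from 2041 to 2756 in shOpn3, with a log2 fold change of 0.04 and a 95% confidence interval from -0.17 to 0.25. Ackr3 had -0.05 (-0.35 to 0.24), Ackr2 -0.04 (-0.91 to 0.83) and Ackr4 -0.35 (-0.64 to -0.05, limma adjusted p = 0.0974). Cxcr4 stood at 159 to 283 in shControl and 234 to 397 in shOpn3 (log2 fold change 0.47, limma adjusted p = 0.0779), and it was called with the replicate number as a block (adjusted p = 0.0209). Likewise Cxcl14 ran from 1167 to 1554 and from 1382 to 2157 (log2 fold change 0.30, limma adjusted p = 0.123) and was called with the block (adjusted p = 0.00838). With the block 18 members were called higher and 0 lower, against 30.3% of all genes called in either direction and 15.1% called higher. The remaining tested members were not called: Ccl27 (log2 fold change -0.21), Ccl19 (0.31), Ccl24 (0.07), Ccr3 (0.24), Ccr7 (1.08) and Cxcr2 (0.17). Of these, Ccr7, the receptor of Ccl19 and Ccl21 that guides dendritic cells to lymph nodes, had 37.7 counts in shOpn3 replicate 4 and at most 13.8 elsewhere.

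Another set of ligands was highest in shOpn3 replicate 2. Cxcl1, Cxcl2, Cxcl3 and Cxcl6 attract neutrophils through Cxcr2 and lie in a cluster on chromosome 14, and Ccl20 is the ligand of Ccr6. Cxcl1 (ENSRNOG00000002802) had 3.06, 6.11, 8.16, 6.55 and 3.16 normalized counts in shControl and 10.6, 899.6, 7.48, 14.5 and 5.14 in shOpn3. Replicate 2 was thus far above the other 4 shOpn3 libraries, which overlapped the controls. Over the groups the log2 fold change was 2.0 (limma adjusted p = 0.241, SE 1.11), and 0.69 without that library (adjusted p = 0.262). The edgeR quasi-likelihood test on recovered reads, by contrast, called Cxcl1 with all libraries (log2 fold change 5.06, adjusted p = 0.0421).

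The same library was the highest for the related genes, all of which were too rare for the test. Cxcl2 had 2, 6, 4, 4 and 5 reads in shControl and 3, 43, 3, 5 and 3 in shOpn3. Cxcl3 had 3, 6, 4, 5 and 12 and then 2, 37, 3, 5 and 4, and Cxcl6 had 2, 3, 8, 4 and 4 and then 6, 28, 17, 8 and 6. Ccl20 had 0, 0, 1, 1 and 0 reads in shControl and 2, 44, 1, 1 and 0 in shOpn3. Since Cxcl1, Cxcl2 and Cxcl3 are similar in sequence, reads could have been split between them by the counting. The transcript of Il6, a cytokine gene named after its values were seen, had 2, 1, 0, 1 and 2 reads in shControl and 15, 36, 8, 9 and 6 in shOpn3, again highest in replicate 2. Cxcl6 was not high in that library alone, since shOpn3 replicate 3 also stood above every control. Among neutrophil markers, S100a9 had 85.0 in that library, within its shControl range of 59.2 to 214. S100a8 had 24.4, below its shControl range of 36.7 to 100.2, and Elane was listed at 0 in every library. Csf3r, which microglia also express, had 318 there, above its shControl range of 155 to 252.1 and the lowest of the shOpn3 group. It was the 1 of 5 tested neutrophil markers, a list that holds Cxcr2 itself, that was called higher. The receptor Cxcr2 had 8.5 counts in that library, inside its shControl range of 4.08 to 16.9. This library held 33715988 reads, within the range of the others.

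**Figure D3:**
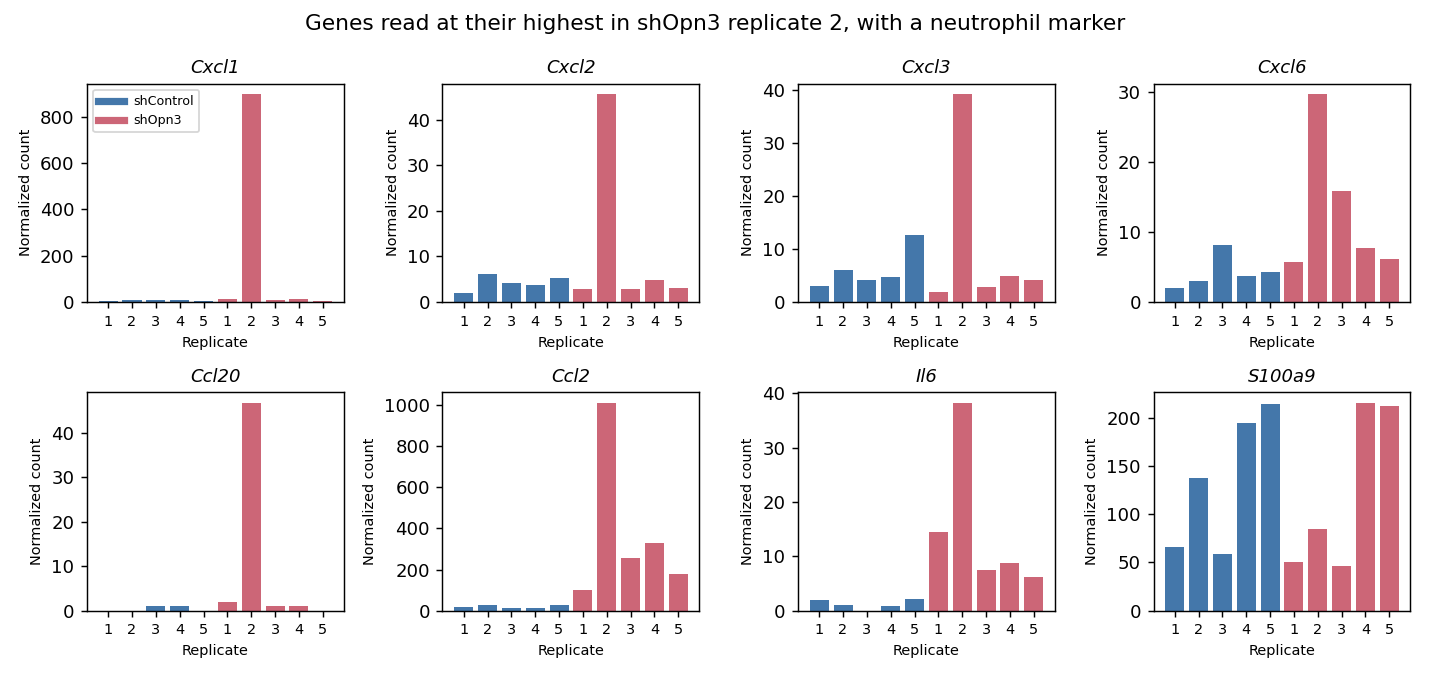
Normalized counts by library (blue shControl, red shOpn3, replicates 1 to 5, linear axes from 0) of 6 chemokine genes, Il6 and the neutrophil marker S100a9. Cxcl1 reaches 899.6 in shOpn3 replicate 2 and at most 14.5 elsewhere, whereas S100a9 in that library (85.0) lies within the shControl range.

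Upstream sequences are shown for 7 ligands that were chosen because the letters of a κB site were found in them. They are the 3 called members with such a match and 4 ligands of the replicate 2 set above, Cxcl1, Cxcl2, Cxcl6 and Ccl20. That set was picked by hand and does not hold every ligand that was highest in shOpn3 replicate 2. Of those 4, Cxcl1 was abundant enough for the test and was not called by limma, and the others were too rare. RefSeq promoters of assembly GRCr8 were matched by symbol for 41 of the 54 members, and the 250 bases before each gene start were searched on both strands. Letters of a κB site, the element bound by NF-κB, were taken as GGGA and TTCC, or GGG and TTTCC, each pair parted by 2 bases of any kind. These forms overlap each other. Those of the interferon-stimulated response element were taken as GAAA and GAAA, again parted by 2 bases of any kind. Capitals mark these matches, with overlapping ones merged.
Cxcl10 (chr14:15988816-15989065, plus strand): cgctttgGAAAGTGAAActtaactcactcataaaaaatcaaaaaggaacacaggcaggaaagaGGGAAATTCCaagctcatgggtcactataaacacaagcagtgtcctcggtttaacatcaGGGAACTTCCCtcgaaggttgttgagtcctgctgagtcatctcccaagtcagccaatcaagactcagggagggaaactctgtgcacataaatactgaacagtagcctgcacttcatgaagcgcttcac
Cxcl11 (chr14:15973618-15973727, plus strand): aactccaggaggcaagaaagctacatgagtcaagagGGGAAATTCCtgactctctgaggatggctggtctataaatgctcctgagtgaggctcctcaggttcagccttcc
Ccl7 (chr10:67513985-67514094, plus strand): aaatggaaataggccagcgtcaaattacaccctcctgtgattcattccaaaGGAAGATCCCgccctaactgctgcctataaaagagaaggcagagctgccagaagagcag
Cxcl1 (chr14:17479322-17479431, minus strand): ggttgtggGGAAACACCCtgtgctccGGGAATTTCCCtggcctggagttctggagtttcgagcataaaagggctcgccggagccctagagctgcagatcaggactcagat
Cxcl2 (chr14:17467256-17467365, minus strand): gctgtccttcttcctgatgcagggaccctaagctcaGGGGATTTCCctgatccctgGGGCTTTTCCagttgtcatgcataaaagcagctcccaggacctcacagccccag
Cxcl6 (chr14:17596418-17596527, minus strand): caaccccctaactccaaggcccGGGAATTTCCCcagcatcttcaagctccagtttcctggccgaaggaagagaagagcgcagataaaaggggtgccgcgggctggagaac
Ccl20 (chr9:91837049-91837158, plus strand): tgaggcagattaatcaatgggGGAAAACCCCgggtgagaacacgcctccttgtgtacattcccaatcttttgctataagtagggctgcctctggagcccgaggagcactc
For Cxcl10 all 250 bases are given and for the others the 110 bases nearest the start.

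Either κB form was found in 9 of the 41 members (22.0%) and in 2.06% of the 33469 promoters in the table. These were Cxcl10, Cxcl11 and Ccl7 among the 12 called members with a promoter. The other 9, Cxcl9 and Cxcl13 among them, held no match in this window. The matches outside the called members were in Cxcl1, Cxcl2, Cxcl6, Ccl20, Ccl9 and Ccr3. All 4 ligands of the hand-picked replicate 2 set with a promoter in the table held a match, between 54 and 102 bases before the start. Cxcl12, Ccl12, Ccl1 and Ccl17 were also highest in shOpn3 replicate 2 and held no κB match in this window. Because the set was picked from these values, its matches are not a test of a link to that library. The response element letters were found in Cxcl10 and Ccl19, against 3.41% of all promoters. In Cxcl10 they began 243 bases before the start, and the κB letters GGGAAATTCC 187 bases before it. A palindrome of STAT factors (TTCNNNGAA) was found in 4 members against 7.67% of all promoters, and the AP-1 letters TGANTCA in 7 members (17.1%) against 6.34%. Matches describe letters in this window alone, and the motifs were chosen after the values were known. Ccl11, Ccl2, Ccl3, Ccl4, Ccl5, Ccr10, Ccr4, Ccr7, Ccr8, Ccr9, Cxcl3 and Cxcr5 had no entry.

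Libraries of the shOpn3 group ranked in a similar way for most called members. Replicate 1 was the lowest of the 5 for 13 of the 16, among them 11 of the 12 called ligands, and replicate 4 was the highest for 11. Cx3cl1 ran the other way, highest in replicate 1 and lowest in replicate 4. The summed microglial markers were 27918, 23466, 36742, 44787 and 31568 in shOpn3 replicates 1 to 5, also highest in replicate 4 but lowest in replicate 2. Opn3 was highest of the shOpn3 group in replicate 1 (290 normalized counts). It was lowest in replicate 5 (145), the library that was highest for 1 of the called members. These orders are given as measured over 5 libraries, with no test.

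**Figure D4:**
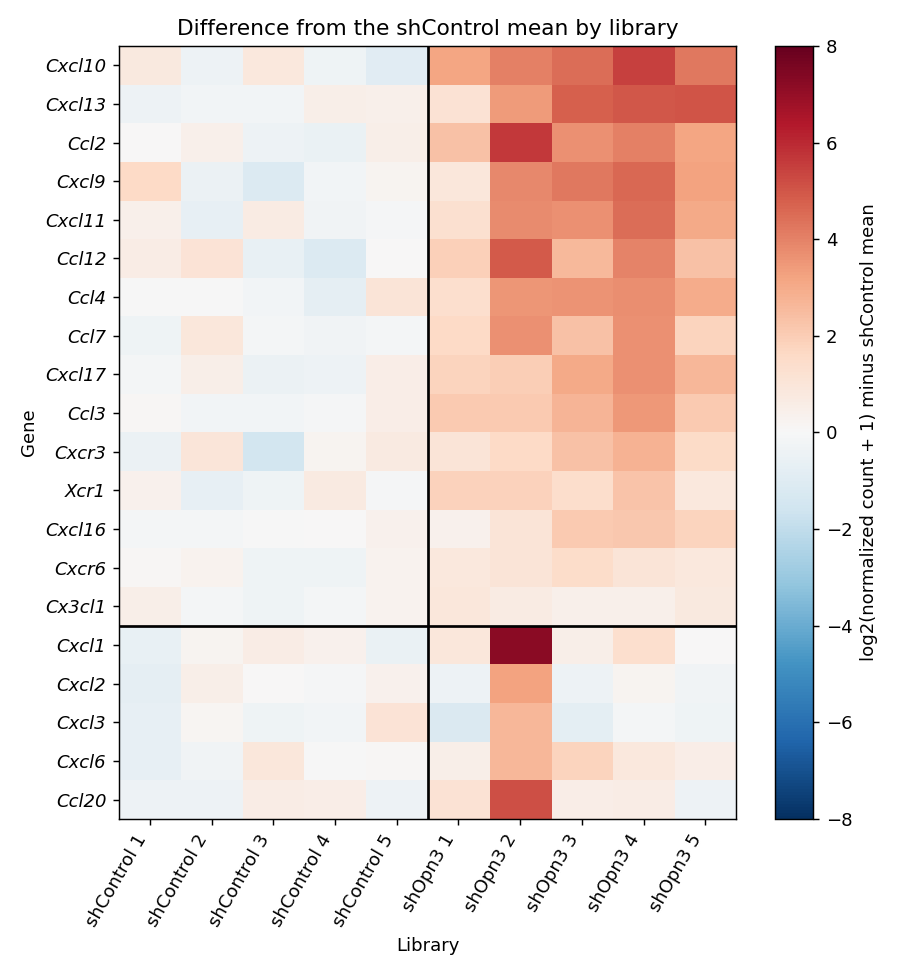
Log2(normalized count + 1) of each library minus the shControl mean of the gene, for 15 called members (above the line) and 5 ligands that were highest in shOpn3 replicate 2 (below it); red is higher and blue lower than the shControl mean. Replicate 1 is the palest shOpn3 column for most called members, and replicate 2 is the darkest for Ccl2, Ccl12 and the 5 lower rows.

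Rare members had between 43 and 231 reads in all per library. Of the 22, 20 had a higher mean in shOpn3 and 11 reached at least 10 reads in some library. The share over all rare genes was not computed, so the 20 are not read as a rise of these members. Some of the higher means rest on 1 library, as for Ccl20 in shOpn3 replicate 2 and Cxcr1 in shOpn3 replicate 1. When all 23160 genes with a read were tested, Ccl9 (limma adjusted p = 0.0165) and Ccl22 (limma adjusted p = 0.0249) were called higher, as were 6.95% of all genes in that fit. Ccl22, a ligand of Ccr4 made by dendritic cells and macrophages, had 0, 1, 1, 1 and 2 reads in shControl and 2, 10, 3, 15 and 5 in shOpn3. Its companion Ccl17 had 3, 0, 0, 1 and 2 reads and then 2, 4, 1, 3 and 2, and their receptor Ccr4 had 1, 1, 1, 1 and 6 and then 2, 4, 2, 3 and 2. Ccl17, Cx3cl1 and Ccl22 are consecutive genes on chromosome 19 in the RefSeq annotation.

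Ccl25, a ligand of thymus and gut, had 3, 3, 0, 5 and 0 reads in shControl and 3, 5, 14, 11 and 8 in shOpn3, and its receptor Ccr9 had 3, 4, 1, 5 and 4 and then 3, 3, 7, 19 and 2. The groups overlapped for both. Ccr6, the receptor of Ccl20, had 13, 5, 3, 7 and 9 reads and then 7, 3, 19, 16 and 10. Ccr10, which binds Ccl27 and Ccl28, had 6, 9, 9, 6 and 10 and then 9, 5, 13, 16 and 10. Neither receptor separated the groups. Ccl28 had 0, 2, 1, 3 and 0 reads and then 3, 1, 2, 2 and 1, and Ccl1, the ligand of Ccr8, had 7, 4, 2, 2 and 3 and then 5, 8, 5, 2 and 3. Ccr1l1 had 3, 2, 1, 1 and 0 reads and then 0, 2, 2, 1 and 1. The last 4 members had at most 10 reads over all libraries: Cxcr1 had 5 and Ccl21 had 3, each in shOpn3 replicate 1 alone, Ccl26 had 2 and 1 in shControl replicates 1 and 4 and 1 in shOpn3 replicate 1, and Ccr8 had 1 in shControl replicate 4 and in shOpn3 replicates 1 and 2. A library without a read allows up to 3 reads, so differences for these 4 were not detectable at this depth.

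In the authors' deposited table, a DESeq2 comparison, 21 members had an adjusted p under 0.05, all 21 higher in shOpn3, as were 11.4% of all genes with an adjusted p there. These were the 16 above together with Cxcr4, Cxcl6, Ccl9, Xcl1 and Ccl22. The authors' deposited table gave no adjusted p for 11 members, Cxcl1, Cxcl2 and Ccl20 among them. Its log2 fold change for Cxcl1 was 5.11 and for Cxcl10 4.32.

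Genes that work with chemokines were examined as a list of 39, covering further ligands and receptors, proteases, and the kinases, arrestins and G-protein effectors of the receptors. Of 37 tested, 13 were higher and 1 was lower, against 18.8% of all genes called in either direction, and the list's median log2 fold change was 0.17. Cd74, a receptor of the cytokine Mif and the invariant chain of antigen presentation, averaged 2556 ± 852 among the controls and 16582 ± 12502 after knockdown (SD, n = 5 each) and rose by 2.36 (limma adjusted p = 0.00844), with shOpn3 replicate 1 among the controls. Rgs1, which shortens signalling of chemokine receptors, rose by 1.69 (limma adjusted p = 0.000267, SE 0.183). The 1 lower gene without the replicate block was Gnai1, an inhibitory G-protein subunit, which fell by 0.45 (limma adjusted p = 0.00452, SE 0.0888) and was named after its values were seen. With the block 17 partner genes were higher and 3 lower, against 30.3% of all genes called. The 2 further lower ones were Grk6 (log2 fold change -0.27, limma adjusted p = 0.0159) and Mif (-0.58, limma adjusted p = 0.0428), named after their values were seen and each lower in 5 of 5 pairs.

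Genes that regulate chemokine transcription were the second list, with transcription factors of the NF-κB, interferon and STAT families, their receptors, and inducing cytokines. Of 24 tested, 18 were higher and 0 lower by limma, with 0 lower also at an unadjusted p under 0.05 and by edgeR and DESeq2. The 6 not called by limma were Rela (log2 fold change -0.10), Irf3 (-0.07), Jak1 (0.17), Tyk2 (0.24), Ifnar1 (0.19) and Ifnar2 (0.21). Over all genes tested limma called 10.4% higher and 8.48% lower. The list had a median log2 fold change of 0.61 against -0.02 over all genes. Irf7, a factor of the interferon response, averaged 270.2 ± 35.7 among the controls and 1428.5 ± 897 after knockdown (SD, n = 5 each) and rose by 2.18 (limma adjusted p = 0.00139). Il1b, an inducer of many ligands, rose by 1.86 (limma adjusted p = 0.00216, SE 0.325), and Irf8, a factor of macrophages and microglia, by 1.73 (limma adjusted p = 0.000691, SE 0.242). The 2 untested regulators that follow were named after their values were seen. Ifng, the interferon that induces Cxcl9, had 0 reads in every shControl library and 0, 1, 2, 2 and 0 in shOpn3, all under the limit of 3 reads. Tnf was listed at 0 in all 10 libraries.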

How the data were processed

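RNA-seq of 10 single micropunched nuclei (5 per group) was read from 1 deposited table. Per the submitters' processing notes, FastQC, STAR, featureCounts and DESeq2 were used; genome build, annotation and strand setting were not given in the sources used here, so similar or overlapping genes (Cxcl1, Cxcl2 and Cxcl3; Ccl6 and Ccl9; Ccr3 and Ccr1l1) are uncertain. The deposited sample values are a signal, gene counts that the authors divided by 1 size factor per sample (0.942 to 1.07). All positive values (100%) were whole multiples of 1 read within 0.01 read, which gave the recovered reads. The authors' deposited table also holds log2 fold changes, a test score and p-values from DESeq2, per the file headers.

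Genes with a mean of at least 10 (15597) were tested with limma 3.58.1 (trend) on log2(normalized count + 1), two-sided, with Benjamini-Hochberg adjustment over all of them and a threshold of 0.05, in R 4.3.3. Exact permutation tests over the 252 splits were also run, and their p-values are not printed. edgeR 4.0.16 and DESeq2 1.42.0 on recovered reads, other scalings, pseudocounts and filters, a replicate block and leaving out each sample were alternatives. The fit was tested on simulated data. Deviations from the group means correlated between same-numbered samples with r = 0.44, 0.39, 0.40, 0.12 and 0.41 for numbers 1 to 5. The main fit used the group alone, and the replicate block was given as an alternative. Correlations between differently numbered samples were not set beside these, so they cannot show that a number marks an animal.

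Every member was accounted for, called ones with each sample's value. From the partner and regulator lists the 3 called genes with the largest log2 change were named, plus Cx3cr1. Of the genes this rule names, 1 called member and 1 partner gene are counted but not reported here. Members, lists and motifs were chosen with earlier results of these data known.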

Additional observations from a re-analysis of the deposited data

Results flagged for a closer look

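The 54 members and Opn3 gave 108 sets of 5 values, 1 set per group, after sets without any spread were left out. Of these, 20 had 1 library that stood apart from the other 4 by Dixon's criterion. For normally distributed values chance gives about 1 in 20, or 5.4. Sets with a read in 1 library only (in Cxcr1, Ccl21, Ccl26 and Ccr8) meet the criterion by construction, so the 20 cannot be weighed against 5.4. Library shOpn3 replicate 2 accounted for 5 of them. Its normalized counts were 899.6 for Cxcl1 (next highest in the group 14.5), 46.7 for Ccl20 (1.92), 45.7 for Cxcl2 (4.83), 39.3 for Cxcl3 (4.83) and 1011 for Ccl2 (328). Library shOpn3 replicate 4 also accounted for 5, with 229 for Ccl6 (122), 174 for Ackr4 (128), 77.3 for Ccr1 (49.9), 37.7 for Ccr7 (13.8) and 18.4 for Ccr9 (6.54).

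In shOpn3 replicate 1 the value of Cxcl14 was 2157 (next 1600.6), and Cxcr1 at 4.80, Ccl21 at 2.88 and Ccl26 at 0.959 were read in no other shOpn3 library, on 5 reads or fewer. Cxcr6 reached 41.1 in shOpn3 replicate 3 (next 30.8). Among the controls, Cxcl9 was 45.9 in replicate 1 (next 16.9), Ccl7 was 20.4 in replicate 2 (9.49), Ccl4 was 17.9 in replicate 5 (8.16), Ccr4 was 6.33 in replicate 5 (1.02) and Ccr8 was 0.936 in replicate 4, a single read. The cause of these values was not tested.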

How the results depend on the processing

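Member calls were mostly stable over the 20 alternatives. The 16 members called higher became 8 when a mean of at least 50 was required, which left 19 members in the test, and 15 to 18 when single libraries were left out. Without a filter 18 were called (6.95% of all genes in that fit were higher), and edgeR and DESeq2 each called 17 (10.7% and 12.2% of all genes). The count called lower was 1 under quantile normalization and 0 to 1 on leaving out single libraries, in both cases Ackr4 (-0.45, limma adjusted p = 0.0400 with quantile normalization, and -0.45, adjusted p = 0.0251 without shOpn3 replicate 4). Cxcr4 was also called without shControl replicate 5 (0.57, adjusted p = 0.0413), without shOpn3 replicate 2 (0.57, adjusted p = 0.0421) and by DESeq2 (0.48, adjusted p = 0.0408). Single-gene values kept direction and side of the threshold 633 times, 12 were newly called and 1 was lost, Cxcr3. With the replicate block the genes called rose from 2940 to 4726, and to 4731 with edgeR and the block, an alternative chosen after seeing the data; 18 and 19 members were then called higher. Leaving out single libraries gave 1987 to 3056 genes called, 13 to 15 partner genes and 13 to 18 regulators. Opn3 stayed between -2.14 and -1.66 in those fits. Members with a few reads per library are limited by depth.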
